A study of Mus musculus with 16 samples.

Results

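The cytosolic chaperonin TRiC (also called CCT) was followed through liver RNA of Trim28MommeD9/+ and Trim28+/+ mice by way of the 8 genes that code for its subunits, Tcp1, Cct2, Cct3, Cct4, Cct5, Cct6a, Cct7 and Cct8. The members were chosen by gene symbol, which gave 10 probes of the 25697 on the array, with 2 each for Tcp1 and Cct3. Of the 8 genes, 5 had a probe that was detected on at least 3 of the 16 arrays (detection p-value under 0.01) and were among the 7302 genes tested. The set was proposed with the genotype differences of these same arrays known. The genotype differences of the subunits are therefore given as a description and carry no test.

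The arrays were 7 of Trim28MommeD9/+ and 9 of Trim28+/+ liver, all from male mice aged 4 weeks on the FVB/NJ background, hybridised to an Illumina bead array of mouse transcripts. MommeD9 is a chemically induced point mutation in a splice site of Trim28, the gene for a corepressor that works with chromatin-modifying enzymes. The heterozygous mutants and their wild-type littermates come from a line that carries a GFP transgene, which is silenced in part of the red blood cells and was used to find the mutation. The study describes 4 mice per genotype with technical replicates, and the labels do not say which arrays share a mouse. Standard errors and p-values taken over arrays are therefore too small. In whole liver, fewer cells of a type and less RNA per cell cannot be told apart.

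TRiC is a large double ring in which each ring holds one copy of every subunit. Newly made proteins are enclosed in its cavity and fold there, using ATP. Actin and tubulin are its best known clients, and prefoldin hands them over from the ribosome. Because the subunits have distinct places in the ring, they are not interchangeable, and the assembled complex needs all of them. Tcp1 codes for the alpha subunit, Cct2 for beta, Cct3 for gamma, Cct4 for delta, Cct5 for epsilon, Cct6a for zeta, Cct7 for eta and Cct8 for theta.

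The subunit genes lie on different chromosomes, and several share a short stretch of DNA with a neighbour read in the opposite direction. RefSeq promoter sequences (GRCm38.p6, 250 bases before to 50 after the start) were matched by symbol for 7 of the 8 subunits, all but Cct4. Searched on both strands were GAANNTTC (the core of a heat shock element, bound by heat shock factors), CCAAT (the CCAAT box, bound by NF-Y), CCGGAAG (the ETS-type motif, bound by ETS factors), GGGCGG (the GC box, bound by Sp1) and TGACGTCA (cAMP response element, bound by CREB). The sequences below lie between the start of the subunit gene and that of its neighbour, read 5′ to 3′ on the strand of the subunit gene. Capitals mark the CCAAT box, the GC box and the ETS-type motif on either strand, and no base was shared by 2 matches. Tcp1 and Cct8 are shown because their level was lower in the mutants, and Cct3 and Cct6a because theirs was not.
Tcp1: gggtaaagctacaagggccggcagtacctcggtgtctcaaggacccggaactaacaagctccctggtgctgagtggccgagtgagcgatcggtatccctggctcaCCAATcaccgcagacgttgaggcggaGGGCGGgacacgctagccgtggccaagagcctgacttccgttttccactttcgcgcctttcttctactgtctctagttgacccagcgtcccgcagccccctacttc
Cct8: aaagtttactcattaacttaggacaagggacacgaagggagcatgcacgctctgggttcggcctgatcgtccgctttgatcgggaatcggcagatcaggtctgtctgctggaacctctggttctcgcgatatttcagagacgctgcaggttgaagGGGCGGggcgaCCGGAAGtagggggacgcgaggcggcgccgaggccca
Cct3: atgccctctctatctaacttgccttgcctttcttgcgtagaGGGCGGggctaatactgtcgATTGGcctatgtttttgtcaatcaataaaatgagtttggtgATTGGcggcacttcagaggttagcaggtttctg
Cct6a: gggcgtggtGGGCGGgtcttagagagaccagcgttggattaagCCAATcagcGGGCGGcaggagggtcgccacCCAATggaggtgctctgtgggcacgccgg
The Tcp1 stretch is chr17:12916092-12916328 on the plus strand, the Cct8 stretch chr16:87495870-87496072 on the minus strand, the Cct3 stretch chr3:88297000-88297134 on the plus strand and the Cct6a stretch chr5:129787254-129787355 on the plus strand.

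No heat shock element core and no cAMP response element was found in any of the 7 windows, which 7.86% and 1.79% of all 32851 promoters of the same length hold. A GC box was present in all 7 windows and in 35.7% of all promoters. The CCAAT box was matched 1 time in Tcp1, 2 times in Cct3, 2 times in Cct6a and 3 times in Cct7, and was not matched in Cct2, Cct5 and Cct8, against 37.4% of all promoters with a match. The ETS-type motif was matched 1 time each in Tcp1, Cct2 and Cct8, and 8.86% of all promoters hold it. For Tcp1, the ETS-type match and the second GC box of the window lie outside the stretch printed. Tcp1 and Cct8, the members with the lower level, each held an ETS-type match, as did the undetected Cct2. The GC box, present in all 7 windows, does not set them apart from Cct3 and Cct6a, and the CCAAT box of Tcp1 was also found in these. Whether any motif goes with the level was not tested. A match of letters is a description and says nothing of binding in these livers.

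Before the subunits are described, the arrays themselves need a word. Trim28, the mutated gene, had normalized log2 intensities of 8.53 (lowest), 8.62 (median) and 8.76 (highest) on the Trim28MommeD9/+ arrays, against 8.63, 9.05 and 9.39 on the Trim28+/+ arrays, a log2 fold change of -0.44 (SE 0.09, limma adjusted p = 0.00277). The authors had subtracted a constant from each array, 38.6 ± 1.05 intensity units for Trim28MommeD9/+ (SD, n = 7) and 50.8 ± 4.09 for Trim28+/+ (SD, n = 9). Split at the widest gap in this constant, the low-background set held all 7 Trim28MommeD9/+ arrays and Trim28+/+ replicate 1, and the high-background set the other 8 Trim28+/+ arrays. Background and genotype therefore almost coincide, and each subunit is also set against the 2 kinds of Trim28+/+ array. Trim28+/+ replicate 1 was otherwise unlike the mutant arrays. Its mean intensity was 316.92, against 204.6 to 269.9 in Trim28MommeD9/+, and it had 10262 detected probes, against at most 9630 on any other array. Over all 7302 genes, 761 (10.4%) were called higher and 831 (11.4%) lower in Trim28MommeD9/+ liver at an adjusted p under 0.05 (limma), and these shares are the background for every count. With the background set as a block, a fit in which the only Trim28+/+ array left beside the mutants is replicate 1, the Trim28 difference was -0.77 with an adjusted p of 0.186, and the counts over all genes were 2 higher and 1 lower.

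Tcp1, the alpha subunit, was lower in Trim28MommeD9/+ liver. Its levels on the 7 Trim28MommeD9/+ arrays ran from 8.26 over a median of 8.60 to 8.99 on the log2 scale, and those on the 9 Trim28+/+ arrays from 8.79 over 9.14 to 9.48. The means were 8.60 ± 0.25 (SD, n = 7) in Trim28MommeD9/+ and 9.19 ± 0.25 (SD, n = 9) in Trim28+/+, a log2 fold change of -0.58 (SE 0.12). On 5 of the 7 mutant arrays Tcp1 lay below every Trim28+/+ array. The other two, replicates 1 and 2 with 8.99 and 8.85, lay within the Trim28+/+ range, and replicate 6 was the lowest. The groups overlapped because of Trim28+/+ replicate 1, at 8.79, and replicate 5, at 8.88, the lowest of their group.

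A second Tcp1 probe was dim. It was detected on 0 of the 7 Trim28MommeD9/+ arrays and on 9 of the 9 Trim28+/+ arrays. Its log2 intensity averaged 4.92 ± 0.18 in Trim28MommeD9/+ (SD, n = 7) and 5.42 ± 0.25 in Trim28+/+ (SD, n = 9), which gave at least a 1.18-fold lower level in Trim28MommeD9/+ when the undetected values were set no lower than the lowest signal detected on the same array. On Trim28+/+ replicate 1, of the low-background set, this probe read 4.97, within the mutant range of 4.68 to 5.16.

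Cct8, the theta subunit, differed by as much as Tcp1. It had a low of 8.49, a median of 8.73 and a high of 8.91 on the Trim28MommeD9/+ arrays, against 8.71, 9.23 and 9.74 on the Trim28+/+ arrays. Means were 8.72 ± 0.16 (SD, n = 7) in Trim28MommeD9/+ and 9.30 ± 0.30 (SD, n = 9) in Trim28+/+, a log2 fold change of -0.58 (SE 0.12). The labels give no mouse, so arrays of a genotype were also joined in presumptive technical pairs by the likeness of their values. In Trim28+/+ these were replicates 2 and 3, 4 and 7 (r = 0.473), 5 and 8, and 6 and 9, with replicate 1 left alone. With the 4 mice per genotype of the study, 9 arrays cannot be made of pairs and single arrays only, so this pairing is at best partly right. With these pairs as a random block, the log2 fold change was -0.57 for Tcp1 (SE 0.16) and -0.57 for Cct8 (SE 0.16). On 3 of the 7 mutant arrays Cct8 was below every Trim28+/+ array. The overlap came from a single array, since Trim28+/+ replicate 1 read 8.71 and the next lowest of its group read 9.11, above all 7 mutants.

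**Figure D1:**
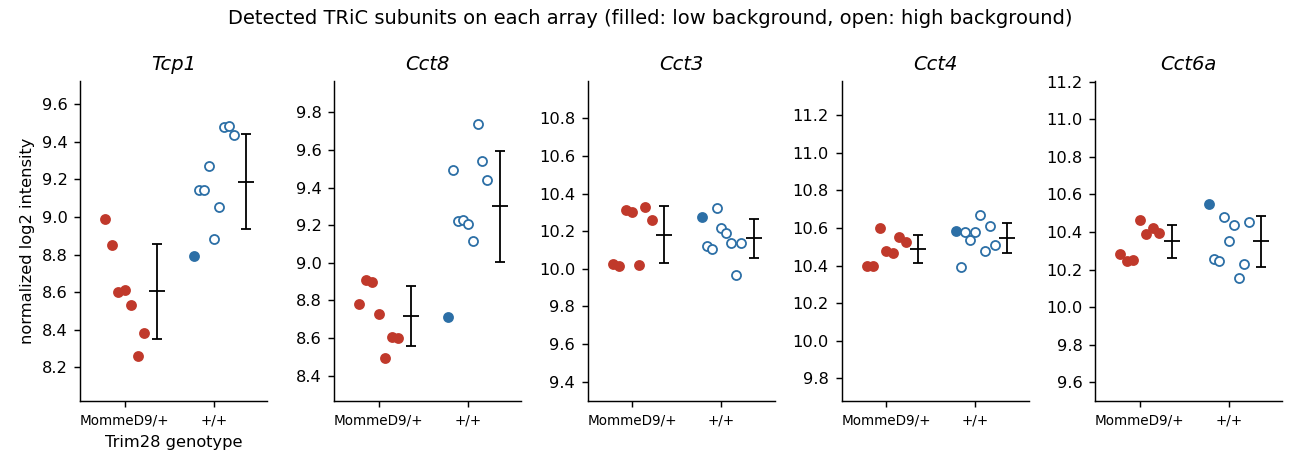
Normalized log2 intensity of the 5 detected TRiC subunits on each array, Trim28MommeD9/+ (red, n = 7) left of Trim28+/+ (blue, n = 9), with the mean and SD in black. Filled points are low-background and open points high-background arrays, and all panels span the same log2 range. Tcp1 and Cct8 sit lower on the mutant arrays, with the single filled blue point, Trim28+/+ replicate 1, at 8.79 and 8.71, while Cct3, Cct4 and Cct6a overlap throughout.

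Cct3, the gamma subunit, showed no such shift. Its levels of 10.02 (lowest), 10.26 (median) and 10.33 (highest) in Trim28MommeD9/+ stood against 9.97, 10.14 and 10.32 in Trim28+/+. The log2 fold change was 0.02 (SE 0.07). The other Cct3 probe, also detected on every array, gave 9.01 ± 0.09 in Trim28MommeD9/+ (SD, n = 7) and 8.93 ± 0.25 in Trim28+/+ (SD, n = 9), a difference of 0.09. Both probes thus placed the genotypes within the spread of their arrays.

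Cct4, the delta subunit, ranged from 10.4 to 10.6 with a median of 10.48 in Trim28MommeD9/+, and from 10.39 to 10.67 with a median of 10.58 in Trim28+/+. Its log2 fold change was -0.06 (SE 0.05), and its SD of 0.08 was the smallest of the 5 subunits in both genotypes. Cct6a, the zeta subunit that most tissues use, averaged 10.35 ± 0.09 in Trim28MommeD9/+ (SD, n = 7) and 10.35 ± 0.14 in Trim28+/+ (SD, n = 9). Every mutant array of Cct6a, from 10.25 to 10.47, lay inside the Trim28+/+ range of 10.15 to 10.55.

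The other 3 subunits could not be compared. The only probe each for Cct2 (beta), Cct5 (epsilon) and Cct7 (eta) was detected on 0 of the 16 arrays, with detection p-values of 0.015 to 0.491, 0.0188 to 0.59 and 0.0263 to 0.202. Their normalized intensities were not well above background in either genotype and give no fold. A probe that is not above background does not show that its transcript was absent. Cct6b, the zeta subunit known from testis, was likewise detected on 0 arrays, with p-values of 0.0188 to 0.253.

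Over all arrays, Tcp1 thus differed together with Cct8 and apart from the other 3 measured subunits. Of the 5 subunits tested, 2 were called lower and 0 higher, beside 11.4% and 10.4% of all genes, or 21.8% in either direction. In 0 of the 5 was every mutant array below or above every Trim28+/+ array, beside 1.11% of all genes for below, 1.29% for above and 2.4% for either. The contrast was known when the members were chosen, so nothing is read from these counts. The median log2 fold change of the 5 was -0.06, beside 0.05 for all genes tested. Taken per array, Tcp1 minus the mean of the other 4 (each centred on its mean over all arrays) was -0.24 ± 0.29 in Trim28MommeD9/+ (SD, n = 7) and 0.19 ± 0.23 in Trim28+/+ (SD, n = 9), a difference of -0.43. Subunit by subunit, the difference in Tcp1 less that in Cct3 was -0.60, less that in Cct4 -0.52 and less that in Cct6a -0.58. Set against Cct8, Tcp1 was 0.0002 ± 0.20 in Trim28MommeD9/+ and -0.0002 ± 0.16 in Trim28+/+, so that over all arrays the pair moved by the same amount. Against the low-background Trim28+/+ array, a single one, this grouping was not seen. The differences there were -0.19 for Tcp1, 0.0049 for Cct8, -0.09 for Cct3, -0.10 for Cct4 and -0.20 for Cct6a.

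The scaling of the arrays moved all 5 subunits down together. When arrays were scaled to a common median instead of quantile normalized, the median of all genes went to -0.19, Tcp1 to -0.84 and Cct8 to -0.84. Cct3, Cct4 and Cct6a then read -0.23, -0.29 and -0.23. Relative to the median of all genes, Tcp1 was at -0.63 with quantile normalization and -0.65 with median scaling, and Cct8 at -0.63 and -0.66. Cct3 was at -0.03 and -0.04, Cct4 at -0.11 and -0.10, and Cct6a at -0.05 and -0.04 on the same footing.

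**Figure D2:**
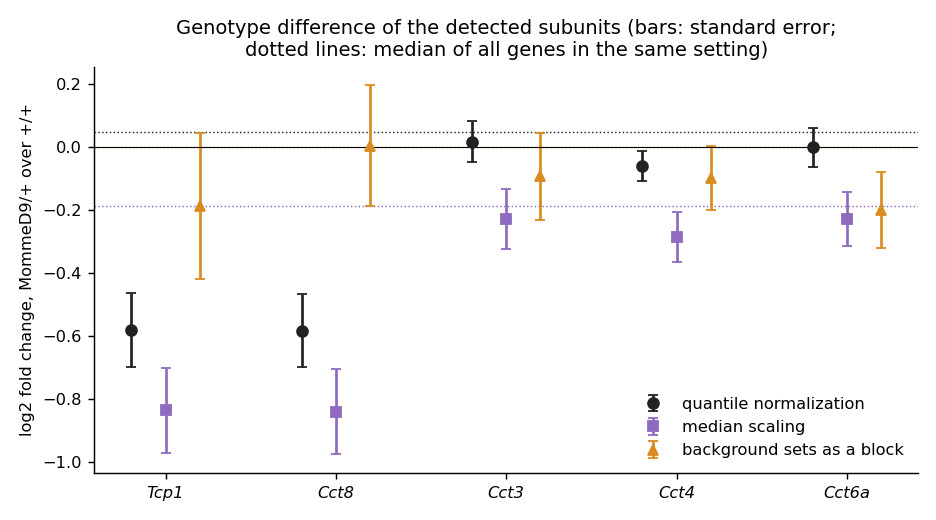
Log2 fold change of Trim28MommeD9/+ over Trim28+/+ for the 5 detected subunits under quantile normalization (circles), median scaling (squares) and with the background sets as a block (triangles), with standard errors. Dotted lines give the median of all genes in the same setting. Tcp1 and Cct8 stand at -0.58 under quantile normalization, while with the block Tcp1 is at -0.19 and Cct8 at 0.0049.

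The background of the array moved with both lower subunits. Against the single low-background Trim28+/+ array, the mutants differed by -0.19 for Tcp1 and by 0.0049 for Cct8, with 5 and 3 of the 7 mutant arrays below it. Against the 8 high-background Trim28+/+ arrays the differences were -0.63 for Tcp1, with 6 of 7 mutant arrays below every one, and -0.66 for Cct8, with 7 of 7 below. For Cct3, Cct4 and Cct6a the differences were -0.09, -0.10 and -0.20 against the low-background array and 0.03, -0.06 and 0.03 against the high-background arrays. With the background set as a block, a fit that rests on the same single array, almost no gene was called over all. The absence of a subunit call in it therefore decides nothing. The low-background value rests on 1 array, and the part of the background in the difference cannot be told apart from genotype in the rest.

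Within Trim28+/+, where genotype plays no part, Tcp1 and Cct8 followed the background constant. Over the 9 Trim28+/+ arrays Pearson's r with the constant was 0.902 for Tcp1 (Spearman's rho 0.929) and 0.937 for Cct8 (rho 0.900). Without replicate 1, over 8 arrays, r was 0.859 and 0.861. Cct3 and Cct6a ran the other way over the 9 arrays, with r = -0.71 and r = -0.736, and Cct4 had r = -0.235. Over the 7 Trim28MommeD9/+ arrays, whose constants span only 37.6 to 40.3, r was -0.34 for Tcp1, 0.432 for Cct8, 0.692 for Cct3, 0.717 for Cct4 and -0.145 for Cct6a. These values are a description over arrays that include technical repeats.

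**Figure D3:**
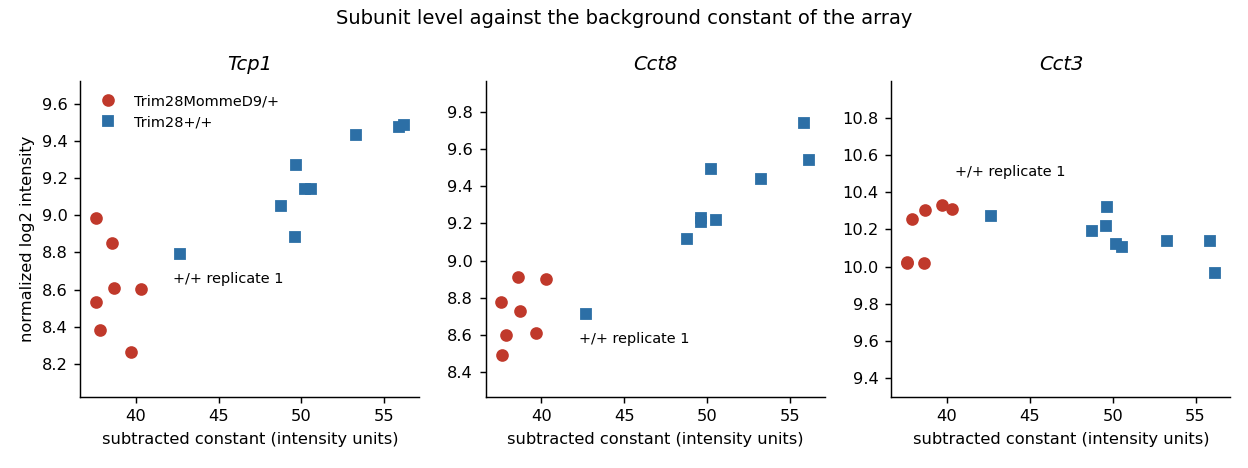
Normalized log2 intensity of Tcp1, Cct8 and Cct3 against the constant that the authors subtracted from each array, in intensity units, for Trim28MommeD9/+ (red circles, n = 7) and Trim28+/+ (blue squares, n = 9). Tcp1 and Cct8 are highest on the Trim28+/+ arrays with the largest constants and Cct3 is not, and Trim28+/+ replicate 1 lies beside the mutants for Cct8.

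The subunits also differed in how they varied apart from genotype. After each was centred on its genotype mean, Tcp1 and Cct8 varied together over the 16 arrays (Pearson's r = 0.752, Spearman's rho = 0.809). Cct3, Cct4 and Cct6a were positively related to each other, with r of 0.563 for Cct3 and Cct6a, 0.436 for Cct3 and Cct4 and 0.303 for Cct4 and Cct6a. Within the genotypes these differed, with r for Cct3 and Cct4 of 0.835 over the 7 Trim28MommeD9/+ arrays and 0.041 over the 9 Trim28+/+ arrays. All 6 pairs of Tcp1 or Cct8 with one of these were negative, from -0.358 for Cct3 and Cct8 to -0.778 for Cct6a and Cct8. Over the Trim28MommeD9/+ arrays alone, Cct8 had r of -0.038 with Cct3 and -0.125 with Cct4, against -0.615 and -0.523 over the Trim28+/+ arrays. Tcp1 had r of -0.617 with Cct3, -0.477 with Cct4 and -0.545 with Cct6a. The arrays share normalization, some share a mouse, and the background constant differs among them, so these values describe the arrays and not a link between transcripts.

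**Figure D4:**
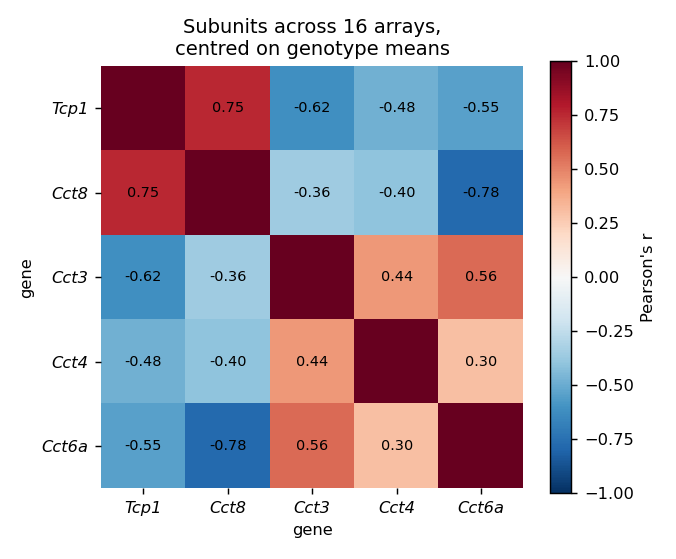
Pearson's r between the 5 detected subunits over 16 arrays, each gene centred on its mean in its genotype (red positive, blue negative). Tcp1 and Cct8 are positively related (r = 0.752), as are Cct3, Cct4 and Cct6a among themselves, and every pair of Tcp1 or Cct8 with one of these is negative in the values over both genotypes.

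The genes most like Tcp1 by the same measure were Tmem254a (r = 0.894), Cdk2 (r = 0.889), Aadat (r = 0.886), Ube2q1 (r = 0.886) and Marchf8 (r = 0.871), over 16 arrays. Cdk2 is a cyclin-dependent kinase of the cell cycle, Aadat a mitochondrial aminotransferase of lysine and tryptophan breakdown, and Ube2q1 and Marchf8 code for a ubiquitin-conjugating enzyme and a membrane-bound ubiquitin ligase. Of the 5, Tmem254a (-0.53, adjusted p = 0.00163), Ube2q1 (-0.61, adjusted p = 0.00406) and Marchf8 (-0.45, adjusted p = 0.03) were lower in Trim28MommeD9/+ by limma. Cdk2 (-0.22, adjusted p = 0.0729) and Aadat (-0.33, adjusted p = 0.0883) did not pass, and 11.4% of all genes were called lower. The 5 genes were picked for likeness to Tcp1, which followed the background constant within Trim28+/+, so nothing is read from how many were called. Single arrays decided 3 of these calls: Marchf8 did not pass without any one of Trim28MommeD9/+ replicates 5, 6 and 7 or Trim28+/+ replicates 7, 8 and 9 (adjusted p from 0.0503 to 0.0696), Cdk2 passed without Trim28MommeD9/+ replicate 1 or 2, and Aadat without replicate 1 of either genotype. Averaged over its detected probes, Ube2q1 had -0.32 (adjusted p = 0.0345). With presumptive technical pairs as a random block (arrays of a genotype joined by the likeness of their values, since the labels give no mouse) Marchf8 did not pass (adjusted p = 0.15). With the background set as a block, a fit that rests on a single Trim28+/+ array, the values of Tmem254a, Ube2q1 and Marchf8 were -0.06, -0.04 and 0.06.

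Tcp1 lies on chromosome 17 (12916329 to 12925067, GRCm38.p6, plus strand), not far from Mas1, which codes for a G protein-coupled receptor. Among the 62 annotated genes that begin within 1 Mb of Tcp1, 14 had a probe and 8 were tested. Mas1, whose annotated range begins 77.5 kb before that of Tcp1, was the only one called higher, and 0 were called lower, beside 10.4% and 11.4% of all genes. The Mas1 probe read 6.70, 6.98 and 7.36 (lowest, median, highest) on the Trim28MommeD9/+ arrays and was not well above background on any Trim28+/+ array (4.61, 4.78 and 5.18), at least a 3.53-fold higher level (limma adjusted p = 2.13e-10). The groups did not overlap. At an unadjusted p under 0.05, 2 of the 8 neighbours were higher and 0 lower (limma), beside 20.7% and 16.1% of all genes.

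Mrpl18, a protein of the large mitochondrial ribosomal subunit, is the tested gene closest to Tcp1 and was picked out after its values were seen. In the promoter table it starts 237 bases from Tcp1 and is read in the opposite direction, from the far end of the Tcp1 stretch printed above. The annotated ranges of the genes, which include other transcripts of Mrpl18, share 1459 bases. Mrpl18 had 8.38 ± 0.17 in Trim28MommeD9/+ (SD, n = 7) and 8.36 ± 0.10 in Trim28+/+ (SD, n = 9), a log2 fold change of 0.02 (SE 0.07, adjusted p = 0.845). Its genotypes thus lay within the spread of their arrays, beside -0.58 for Tcp1 across the shared stretch, and the difference between both genes was not tested. Against the single low-background Trim28+/+ array the values were -0.10 for Mrpl18 and -0.19 for Tcp1. Against the high-background Trim28+/+ arrays they were 0.04 and -0.63. Across the stretches of the other subunits, the partner of Cct8 is the non-coding RNA gene B130034C11Rik, that of Cct3 is Tsacc and that of Cct6a is Psph, none of them tested. The partner of the undetected Cct7, Pradc1, had 0.20 (SE 0.07, adjusted p = 0.0603).

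On the other side of Tcp1, Acat3, an acetyl-CoA acetyltransferase whose annotated range shares 1238 bases with that of Tcp1, had a log2 fold change of 0.18 (SE 0.08, adjusted p = 0.1). Sod2, the mitochondrial superoxide dismutase, had -0.16 (adjusted p = 0.235), Igf2r, the imprinted receptor that clears IGF2, 0.09 (adjusted p = 0.322), Plg, the plasminogen gene, 0.05 (adjusted p = 0.461) and Agpat4 0.10 (adjusted p = 0.543). Rnu6, a small nuclear RNA with near-identical copies elsewhere, had 0.01 (adjusted p = 0.973) and cannot be assigned to this locus. With median scaling Plg (-0.16) and Sod2 (-0.38) passed as lower, beside an all-gene median of -0.19.

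**Figure D5:**
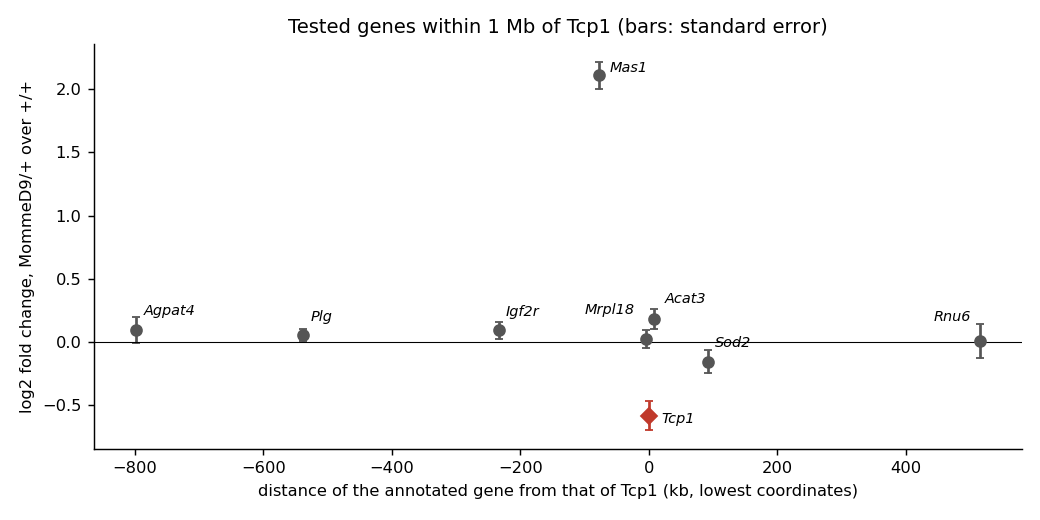
Log2 fold change of Trim28MommeD9/+ over Trim28+/+, with standard errors, for the 8 tested genes that begin within 1 Mb of Tcp1, against the distance of their annotated range from that of Tcp1 in kb. Tcp1 is the red diamond at -0.58, Mas1 the single high point at 2.11 (measured, with Trim28+/+ not above background), and Mrpl18 and Acat3 lie beside Tcp1 at 0.02 and 0.18.

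The genes that work beside TRiC were taken from lists chosen with earlier results of these arrays known. Of the 8 tested genes of prefoldin and the TRiC co-chaperones, 1 was higher and 2 lower in Trim28MommeD9/+, beside 10.4% and 11.4% of all genes. Their median log2 fold change was 0.11, beside 0.05 for all genes. Uxt, a prefoldin-like subunit, was higher by 0.26 (SE 0.06, adjusted p = 0.00587) with 6 of 7 mutant arrays above every Trim28+/+ array, though with median scaling its value was 0.0052. Uri1, its partner in the prefoldin-like complex, was lower (-0.29, adjusted p = 0.0243), but did not pass without Trim28MommeD9/+ replicate 4, 6 or 7 (adjusted p from 0.052 to 0.0598). Vbp1, a prefoldin subunit, was called lower (adjusted p = 0.0107) but was detected on 0 of the 7 mutant arrays and on 4 of the 9 Trim28+/+ arrays, so that no fold is given. Txndc9, which binds TRiC, did not pass. With presumptive technical pairs as a random block none of these 8 passed (adjusted p of 0.0868 for Uxt, 0.108 for Uri1 and 0.119 for Vbp1). At an unadjusted p under 0.05 in that fit, 1 was higher and 2 lower, beside 12.7% and 12.6% of all genes.

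Among actin, tubulin and the tubulin cofactors, the classical TRiC clients and their assembly factors, 1 of 13 tested was higher and 3 were lower. This stood beside 10.4% and 11.4% of all genes, and the median of the list was 0.02. The lower ones were Actr3, of the actin-nucleating Arp2/3 complex (-0.63, adjusted p = 0.00498), Tuba1a, an alpha tubulin (-0.47, adjusted p = 0.0161), and Tubb6, a beta tubulin (-0.64, adjusted p = 0.035). Tubg1, the gamma tubulin of microtubule nucleation, passed as higher (0.19, adjusted p = 0.0495), but read -0.07 with median scaling. Tubb6 did not pass without any one of Trim28MommeD9/+ replicates 1, 2, 5 and 6 or Trim28+/+ replicates 6, 7, 8 and 9 (adjusted p from 0.0518 to 0.0818), nor did Tubg1 without any one of the 7 Trim28MommeD9/+ arrays or Trim28+/+ replicates 1, 2, 5, 8 and 9 (adjusted p from 0.0509 to 0.0915). With the presumptive technical pairs as a random block none of the 13 passed, with adjusted p of 0.0565 for Actr3, 0.0823 for Tuba1a, 0.116 for Tubb6 and 0.136 for Tubg1. At an unadjusted p under 0.05 in that fit, the list had 1 higher and 3 lower, beside 12.7% and 12.6% of all genes. Of 10 other proteins folded or bound by TRiC, 1 was lower, beside 11.4% of all genes. This was the transcription factor Stat3 (-0.30, adjusted p = 0.0153). Its log2 fold change was 0.09 when its detected probes were averaged, and its adjusted p was 0.122 with the technical pairs as a block. Gnb1, Gnb2 and Bub3, which code for the WD-repeat proteins of G protein signalling and the spindle checkpoint, did not pass.

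The cytosolic HSP70 and HSP90 system, which acts upstream of and beside TRiC, was the list with the most genes called. No gene for HSP90 itself was among those tested. The list also held the small heat shock proteins Hspb8 and Cryab and the heat shock factor Hsf2, and Hspb8 and Hsf2 were among the genes called lower. Of the 21 tested genes of the list 8 (38.1%) were lower, beside 11.4% of all genes, and 0 were higher, with a median of -0.25. Of the 8, 3 were detected on no mutant array and passed the filter only through Trim28+/+ arrays. With only the probes detected on every array, 4 of 16 were lower, beside 10.6% of all genes in that setting. With presumptive technical pairs of arrays as a random block, 3 of 21 were lower, beside 4.26% of all genes, and St13 (adjusted p = 0.0621) and Dnaja2 (adjusted p = 0.0722) did not pass. The strongest by p were Ptges3, the HSP90 co-chaperone p23 (-1.11, SE 0.19, adjusted p = 0.00145), Hspa8, the constitutive HSP70 (-0.31, SE 0.06, adjusted p = 0.00329), St13, which binds HSP70 (-0.93, SE 0.20, adjusted p = 0.00353), and Dnaja2, a J-domain partner of HSP70 (-0.63, SE 0.14, adjusted p = 0.00465). Dnaja2 was detected on 2 of the 7 mutant arrays. Hspa8 averaged over its detected probes had -0.23 (adjusted p = 0.103).

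Mitochondria have a chaperonin of their own, made of Hspd1 (HSP60) and its lid Hspe1 (HSP10). Both were lower in Trim28MommeD9/+, with log2 fold changes of -0.71 for Hspd1 (SE 0.12, adjusted p = 0.00138) and -1.08 for Hspe1 (SE 0.19, adjusted p = 0.00148). Averaged over its detected probes, Hspd1 had -0.37 (adjusted p = 0.00281). Hspd1 lay between 10.34 and 10.71 on the mutant arrays and between 10.58 and 11.69 on the Trim28+/+ arrays, with 6 of 7 mutant arrays below every Trim28+/+ array. The other 7 tested genes of the mitochondrial list, among them Grpel2 and Clpp, did not pass. The list thus had 2 of 9 tested genes lower, beside 11.4% of all genes. Mkks, the only chaperonin-related gene tested, had 0.04.

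As for Tcp1 and Cct8, the genes of these lists were also set beside the low-background Trim28+/+ array alone. With the background set as a block, almost no gene was called over all. The absence of a call among the 62 genes tested in the 6 lists of co-chaperones, clients, chaperones and chaperonin relatives therefore decides nothing. The values in that fit were -0.03 for Ptges3 (SE 0.29), 0.03 for St13 (SE 0.34), -0.10 for Hspd1 (SE 0.20) and -0.12 for Hspe1 (SE 0.32). Those of Hspa8, Uxt and Tubg1 were -0.17 (SE 0.13), 0.19 (SE 0.13) and 0.35 (SE 0.14). All of these values rest on 1 Trim28+/+ array, so the genes cannot be sorted by them into those that move with the background and those that do not. Leaving out Trim28+/+ replicate 1 makes genotype and background set coincide fully, so the counts of that fit say nothing of the background. In it the HSP70 and HSP90 list had 8 genes lower and the mitochondrial list 2, beside 13.3% of all genes. The prefoldin list then had 2 higher in place of 1 and the other clients 1 higher (Gnb1, 0.23, adjusted p = 0.0348), beside 13.4% of all genes. Under median scaling 15 of the 21 HSP70 and HSP90 genes were lower, beside 34.6% of all genes in that setting.

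The tissue label was borne out by its markers, since 6 of the 8 hepatocyte markers were detected on every array and 1 on none. Their summed intensities ran from 71340 to 77280 in Trim28MommeD9/+ and from 75930 to 82700 in Trim28+/+. Of the 7 tested markers 3 were lower and 0 higher, beside 11.4% and 10.4% of all genes. For Kupffer cells, the resident macrophages of the liver, the sums were 1660 to 2031 in Trim28MommeD9/+ and 1263 to 1651 in Trim28+/+. Of their 6 tested markers 4 were higher and 0 lower, beside 10.4% and 11.4% of all genes. Of 4 sinusoidal endothelial markers 1 was higher, and 0 of the tested stellate cell, erythroid and proliferation markers passed. The 3 cholangiocyte markers with a probe were detected on 0 arrays. Background and genotype almost coincide on these arrays, so nothing about cell composition is read from these counts. The part of these cell types in the Tcp1 and Cct8 levels was not tested.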

How the data were processed

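Liver RNA of 7 Trim28MommeD9/+ and 9 Trim28+/+ arrays was analysed as grouped by the labels. The authors extracted total RNA, made biotinylated cRNA, hybridised it to Illumina MouseRef-8 v2.0 arrays and compiled the values with BeadStudio and GenomeStudio, without stated versions. The deposited table holds a non-normalized intensity and a detection p-value, which the authors' software derived from negative control probes, for each of 25697 probes (833 blank lines were removed). A further table of the authors' intensity values proved to be the same values less a constant per array, scaled to a common mean. Genes were named through the platform annotation: 23978 probes had 1 symbol, 23962 of them updated by Entrez identifier, and 1719 had none. Gene positions are those of RefSeq (GRCm38.p6), and probe positions were not used.

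Intensities were background corrected from the detection p-values, quantile normalized and put on the log2 scale (neqc, offset 16; limma 3.58.1, R 4.3.3). Probes with a detection p under 0.01 on at least 3 arrays were kept (10291), and the probe with the highest mean stood for a gene. Genotypes were compared with limma (lmFit, eBayes with trend) and Benjamini-Hochberg adjustment over 7302 genes. The study's difference score was not rerun. For a probe undetected throughout a genotype, folds are bounds. The script was tested on simulated data. Figures used Matplotlib 3.10.9. The number of arrays limits the precision.

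Named were all 8 subunits, up to 4 genes per list with the smallest p, every tested neighbour of Tcp1, the 5 genes most correlated with Tcp1, Trim28 and Mas1. Members and lists were chosen with earlier results of these data known. Alternatives changed the normalization, background correction, source of values, filter, probe rule, variance, weights and blocks, or left out 1 array. The other detected probe of Tcp1 and of Cct3 was added as an alternative after seeing the data.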

Additional observations from a re-analysis of the deposited data

How the results depend on the processing

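Over 28 alternatives the Tcp1 value ran from -0.84 (median scaling) to -0.19, as a description of values known when the members were chosen. The -0.19 came with the background set as a block, which rests on 1 Trim28+/+ array, where Tcp1 minus the other subunits was -0.0915 and Cct8 0.0049, 0 subunits were called lower, and the counts over all genes were 2 higher and 1 lower. Under the same block Marchf8 (0.0597), Actr3 (0.16), Tubb6 (0.0531) and St13 (0.0323) turned positive, and the measured value of Vbp1 was 0.0552, from a probe undetected in the mutants that gives no fold or sign. Median scaling called 35 genes higher and 2526 lower and 4 subunits lower. The subunit median was then -0.29, and the median of all genes was -0.19 in place of 0.05. With it 14 of 39 named genes changed sign, among them Cct6a (-0.23), Plg (-0.16) and Tubg1 (-0.0712). The authors' scaled values gave 364 genes higher and no filter on dim probes 461. Averaging the detected probes turned Stat3 to 0.0907. For these the cause was not tested.

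Leaving out 1 array at a time gave 502 to 981 genes higher (502 without Trim28MommeD9/+ replicate 6) and 664 to 974 lower, Tcp1 between -0.65 and -0.53, Cct8 between -0.66 and -0.53, and 2 subunits lower throughout. Presumptive technical pairs as a random block (consensus correlation 0.527) gave 176 higher and 311 lower. The replicate numbers do not pair the arrays: same-numbered arrays correlated between -0.394 and 0.479, and 2 of 7 correlated best with their own number. With the replicate block 162 genes were higher and 379 lower, and Tcp1 read -0.50; no gene of the prefoldin or the actin and tubulin list passed, nor did Stat3 or Ube2q1 (adjusted p = 0.0714). Of 1047 alternatives for single genes, 81 lost a call and 18 gained one. Probes near background, such as the second Tcp1 probe, have only bounds.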

Other observations

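The genes whose levels were most like those of Cct8 over the 16 arrays, after centring on the genotype mean, were Coq2, of ubiquinone synthesis (r = 0.948), Bzw1 (r = 0.943), Acadsb, a dehydrogenase of branched-chain acyl-CoA (r = 0.940), Ptma, the prothymosin alpha gene (r = 0.938), and Selenok, a selenoprotein of the endoplasmic reticulum (r = 0.932). All 5 were lower in Trim28MommeD9/+ by limma, beside 11.4% of all genes. The log2 fold changes were -0.70 for Coq2, -0.74 for Bzw1, -1.16 for Acadsb, -1.37 for Ptma and -1.08 for Selenok, with adjusted p-values from 0.00138 to 0.00528. They were picked for likeness to Cct8, which followed the background constant within Trim28+/+, so nothing is read from this count. The part of the background in their differences was not tested. None of these Cct8-like genes is among the 5 genes most like Tcp1.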
